A study of Mus musculus with 8 samples.

Results

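The genes described here are 39 mouse genes for hnRNP proteins and other splicing factors, and the measurement is the set of R-loop peaks that lay in them in young and aged haematopoietic stem cells. A peak belonged to a gene when its summit lay within the gene's GRCm38 bounds extended by 1 kb at either end. All 39 genes were found among the 21887 protein-coding genes of the RefSeq table, and 32 of the 40207 deposited peaks lay in them, 9 from young and 23 from aged cells. The study used strand-specific DNA:RNA immunoprecipitation (ssDRIP-seq), in which the S9.6 antibody captures DNA:RNA hybrids and the library keeps the strands apart. Its 8 libraries were 2 immunoprecipitated and 2 input libraries for each age, made from genomic DNA of freshly sorted bone marrow cells of the phenotype Lineage- Sca1+ cKit+ CD34-. Both ages had the same sort and no treatment. The labels used here give no age in months, strain, sex or number of animals, and none of the groups carried a genetic change that the labels name.

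Splicing removes introns from a nascent transcript. The spliceosome is built from small nuclear ribonucleoproteins, SR proteins bind exonic sequences and mostly favour the use of nearby splice sites, and hnRNP proteins coat the nascent RNA and often oppose it. An R-loop forms when a transcript pairs with its template DNA and leaves the other DNA strand single, and proteins that package the transcript limit how much of it is free to pair. Many SR and hnRNP genes also regulate their own transcripts through alternative exons that lead to RNA decay.

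The deposited data are 4 peak lists, 1 per age and strand, in which the replicates of an age are combined. No value per library was available, which left nothing to test between ages, and in these bulk cells a hybrid in fewer cells cannot be told apart from less hybrid per cell. The fold is the authors' own value, the signal at the summit over the local background, each with 1 added, and the −log10 q is that of their peak caller. Reads at the summit and the local background were recovered from the fold and the −log10 p, and no molecular identifiers are described, so intervals cover counting error only. At the genome background, 0.823 to 0.825 reads in the young lists and 0.689 to 0.690 in the aged lists, the weakest listed peak had 6 reads in young and 5 in aged. A site missing from a list may therefore hold a few reads below that level. Peaks do not measure RNA, so the sorted cell type was not checked by expression. Among marker genes of other blood cells, 0 of 10 erythroid, 1 of 8 B cell and 0 of 10 myeloid genes held a young peak, and 2, 1 and 1 held an aged peak. The named ones were Slc4a1 (fold 4.74), Tfrc (4.73) and Mpo (5.25) in aged, and Ebf1 in both ages (4.50 young, 4.74 aged). Over all protein-coding genes 23.8% held a young and 20.0% an aged peak. The erythroid, B cell and myeloid genes were shorter, with median lengths of 3995, 5531 and 3688 bp against 17169 bp. Low counts in them therefore say little about purity, and the part of other cells in the results below was not tested.

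The promoters of 6 members are shown first, because the strongest peaks near a start lay beside them. They are the 5 members with an aged summit in the first 1 kb after a listed start past a −log10 q of 5, and Hnrnph1, which held the strongest young peak. Each sequence is RefSeq's, build GRCm38.p6, and runs 5′ to 3′ on the strand of the gene from 250 bases before the start to 50 after it. Capitals mark runs of at least 3 G, since a DNA strand rich in G runs is known to favour R-loops when it is the strand left unpaired.
Hnrnpu, chr1:178337766-178338065, minus strand: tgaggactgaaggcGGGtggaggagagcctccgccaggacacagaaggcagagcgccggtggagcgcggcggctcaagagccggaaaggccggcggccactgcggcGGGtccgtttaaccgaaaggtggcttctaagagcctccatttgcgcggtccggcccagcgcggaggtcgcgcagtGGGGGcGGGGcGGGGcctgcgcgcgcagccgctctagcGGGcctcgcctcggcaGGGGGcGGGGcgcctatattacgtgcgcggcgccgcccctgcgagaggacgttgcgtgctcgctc
Tra2b, chr16:22265956-22266255, minus strand: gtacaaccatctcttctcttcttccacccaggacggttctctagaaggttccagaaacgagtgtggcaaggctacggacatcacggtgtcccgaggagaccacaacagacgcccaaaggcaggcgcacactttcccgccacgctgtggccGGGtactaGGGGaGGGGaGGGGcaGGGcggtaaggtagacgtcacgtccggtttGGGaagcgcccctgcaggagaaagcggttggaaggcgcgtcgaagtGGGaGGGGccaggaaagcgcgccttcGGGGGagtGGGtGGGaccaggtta
Hnrnpd, chr5:99978889-99979188, minus strand: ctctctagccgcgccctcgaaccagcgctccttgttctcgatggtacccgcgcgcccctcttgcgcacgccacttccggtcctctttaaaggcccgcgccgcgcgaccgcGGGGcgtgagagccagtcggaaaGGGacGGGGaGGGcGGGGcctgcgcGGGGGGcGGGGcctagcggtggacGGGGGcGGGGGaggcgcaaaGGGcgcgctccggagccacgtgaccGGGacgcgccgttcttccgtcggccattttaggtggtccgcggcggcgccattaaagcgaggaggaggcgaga
Hnrnpa2b1, chr6:51469796-51470095, minus strand: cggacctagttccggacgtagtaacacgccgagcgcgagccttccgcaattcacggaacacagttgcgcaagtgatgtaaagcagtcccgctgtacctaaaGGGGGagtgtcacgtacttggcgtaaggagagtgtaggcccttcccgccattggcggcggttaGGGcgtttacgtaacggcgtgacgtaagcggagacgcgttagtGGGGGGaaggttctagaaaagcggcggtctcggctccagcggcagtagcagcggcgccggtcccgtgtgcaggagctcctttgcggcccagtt
Hnrnpf, chr6:117906532-117906831, plus strand: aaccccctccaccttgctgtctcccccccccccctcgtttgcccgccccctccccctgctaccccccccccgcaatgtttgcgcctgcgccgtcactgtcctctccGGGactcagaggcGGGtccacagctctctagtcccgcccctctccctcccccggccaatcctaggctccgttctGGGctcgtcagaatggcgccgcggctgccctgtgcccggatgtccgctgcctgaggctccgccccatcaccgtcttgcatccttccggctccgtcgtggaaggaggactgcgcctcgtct
Hnrnph1, chr11:50376740-50377039, plus strand: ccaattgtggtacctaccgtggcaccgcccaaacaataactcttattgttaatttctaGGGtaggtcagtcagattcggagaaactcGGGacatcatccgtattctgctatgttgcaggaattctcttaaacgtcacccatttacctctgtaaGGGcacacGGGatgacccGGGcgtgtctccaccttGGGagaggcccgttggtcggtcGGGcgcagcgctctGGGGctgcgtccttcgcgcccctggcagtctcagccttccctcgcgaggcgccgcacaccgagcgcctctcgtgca
The Hnrnpu promoter held 8 G runs and 2 runs of at least 3 C, Tra2b held 11 and 5, Hnrnpd 11 and 4, Hnrnpa2b1 3 and 5, Hnrnpf 3 and 13, and Hnrnph1 8 and 6. G runs therefore outnumbered C runs on the gene's strand in Hnrnpu, Tra2b, Hnrnpd and Hnrnph1, and not in Hnrnpa2b1 or Hnrnpf. Of these windows the peaks reached into that of Hnrnpd alone, where the aged peak covered its last 11 bases. No member peak reached into the other 5 windows.

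More members carried a peak in aged than in young cells. An aged peak lay in 16 of 39 members, 41.0% (95% Wilson interval 27.1 to 56.6), where 20.0% of all protein-coding genes held one. The members were chosen with earlier results of these data known, so the intervals beside the backgrounds are descriptive and not a test. A young peak lay in 9 members, 23.1% (12.6 to 38.3), close to the 23.8% of all protein-coding genes. Against genes no shorter than the shortest and no longer than the longest member, the backgrounds were 15.1% in aged and 18.1% in young. Peaks in both ages lay in 3 members (7.69%, background 10.6%), namely Hnrnpd, Hnrnpf and Hnrnpu. An aged peak alone was found in 13 members (33.3%, background 9.43%) and a young peak alone in 6 (15.4%, background 13.3%). The remaining 17 members held none. Members were of middling length, with a median of 22188 bp against 17169 bp for all protein-coding genes. Per Mb of extended gene they held 23.5 aged and 9.20 young peaks, and all protein-coding genes held 6.51 and 9.15.

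**Figure D1:**
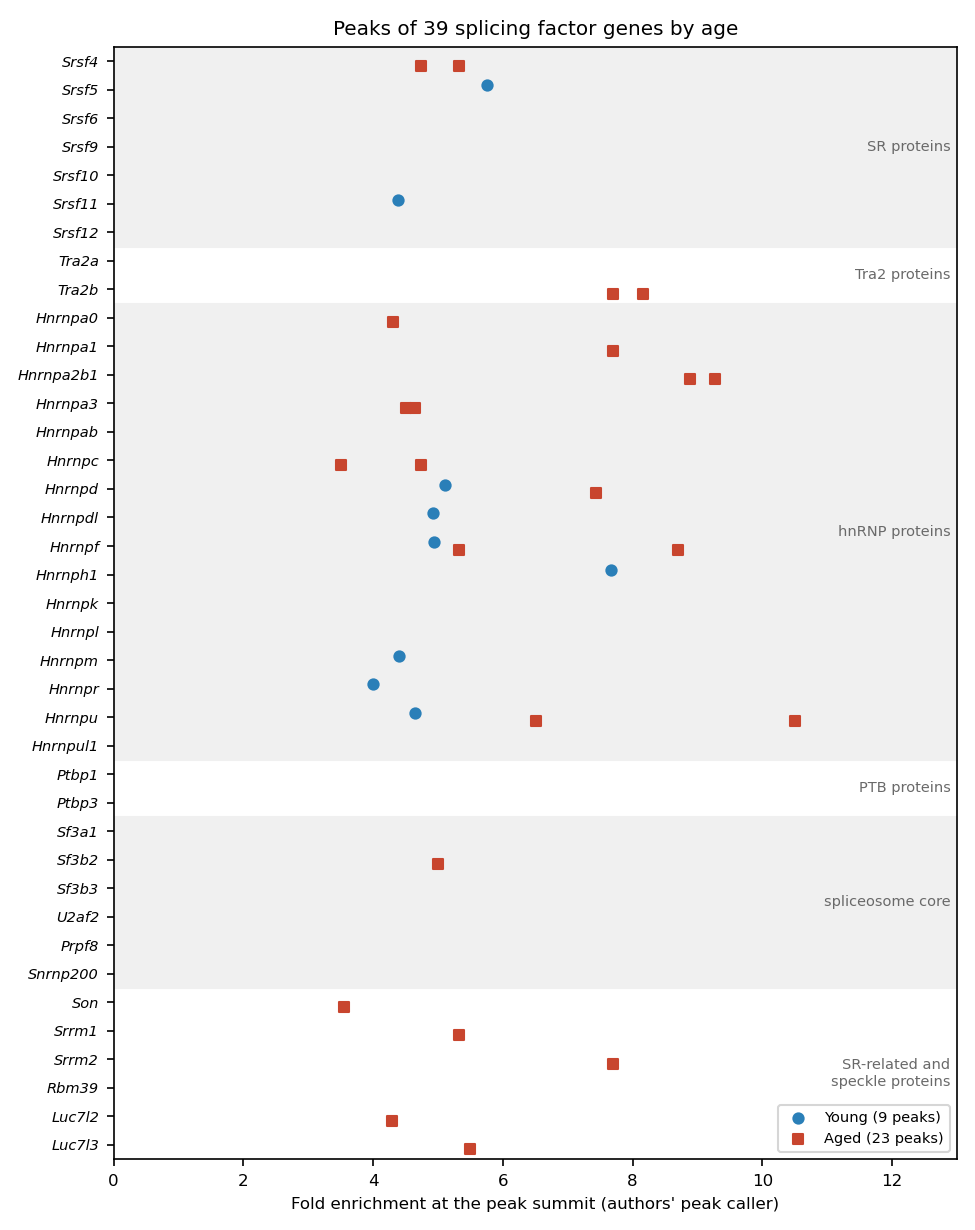
Fold enrichment at the summit (x axis, the authors' value) of every peak in the 39 members (y axis, grouped by protein family), with circles for the 9 young and squares for the 23 aged peaks. Aged peaks reach 10.5 and young peaks 7.67, and rows without a mark held no peak.

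Folds of aged member peaks ran from 3.5 through a median of 5.33 to 10.5, and those of young ones from 4.0 through 4.93 to 7.67. The ranges overlap. Summit reads ran from 5 through 10 to 25 in aged and from 7 through 9 to 13 in young, not scaled for depth. Over all peaks in protein-coding genes the median fold was 4.73 in aged and 4.83 in young, and the median reads were 8 in each. Past a −log10 q of 5 there were 10 of the 23 aged member peaks, in 7 genes (17.9%, 8.98 to 32.7, background 5.39%), and 1 of the 9 young ones, in Hnrnph1 (2.56%, 0.454 to 13.2, background 4.51%). Counted over peaks these were 43.5% of aged and 11.1% of young member peaks, and 21.4% of aged and 12.5% of young peaks in all protein-coding genes, so the young share lay near its background and the aged share was the higher one in the whole series too. Aged member peaks had a median width of 303 bp, against 221 bp for aged peaks of all protein-coding genes, and young ones 231 bp against 215 bp.

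**Figure D2:**
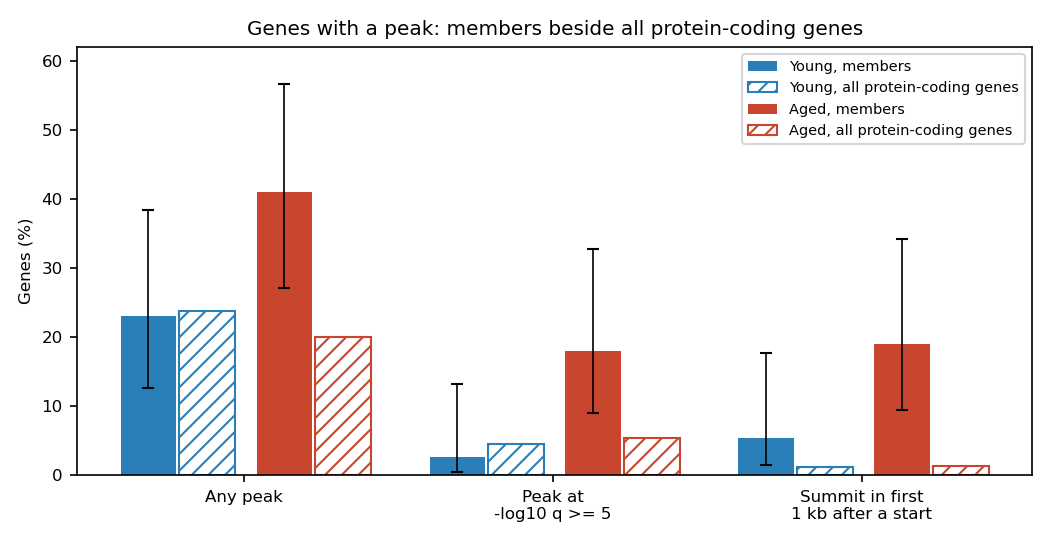
Share of genes with a peak, in percent, for the members (filled bars, with 95% Wilson intervals) and for all protein-coding genes (hatched bars) in young and aged cells, counted for any peak, for peaks past a −log10 q of 5 and for summits in the first 1 kb after a listed start. Aged members stand at 41.0%, 17.9% and 18.9%, and young members at 23.1%, 2.56% and 5.41%.

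Among the hnRNP genes, which encode the proteins that package nascent transcripts, 8 of 16 held an aged peak and 7 of 16 a young peak. This group, 16 of the 39 members, held 7 of the 9 young member peaks and 13 of the 23 aged ones. Its share of genes with a young peak was 43.8% (23.1 to 66.8), an interval that includes the background of 23.8%. The interval of its aged share, 28.0 to 72.0, lay above the background of 20.0%. By number of genes the hnRNP group differed little between ages. Most of the excess of members with an aged peak thus lay in the other groups. Hnrnpu encodes a large nuclear-matrix-associated protein that binds RNA and chromatin. It had the highest aged fold of all members, 10.5 with 18 reads over a background of 0.816 (chromosome 1, 178336648 to 178337458, reverse list), 472 bp after its start. In young cells Hnrnpu had a fold of 4.64 with 10 reads over 1.37 (178336903 to 178337151, reverse list), 824 bp after the start. The young peak lay wholly within the aged peak, and these are the 2 member peaks, 1 of 9 young and 1 of 23 aged, that met a same-strand peak of the other age. The same share over all peaks is not given here, so this count cannot be read as particular to the members. A further aged peak of Hnrnpu, with a fold of 6.51 and 10 reads, lay 7206 bp after the start.

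Hnrnpd, which encodes the AU-rich element binding protein AUF1, had peaks in both ages at separate sites. Its aged peak had the most reads of all members, 25 over a background of 2.5, with a fold of 7.43 and a summit 129 bp after the start (chromosome 5, 99978431 to 99978899, reverse list). The start of 4930524J08Rik, a gene on the plus strand, lay 126 bp from this summit, and the peak was in the reverse list, that of Hnrnpd. The young Hnrnpd peak had a fold of 5.11 and 9 reads, 2005 bp after the start. Hnrnpf, whose protein binds G-rich RNA, likewise had separate sites. Its aged peaks had a fold of 8.70 with 14 reads, 445 bp after the second of its 4 listed starts (chromosome 6, 117907165 to 117907442, forward list), and of 5.33 with 8 reads, 669 bp before the far end of the gene. Its young peak had a fold of 4.94 with 8 reads between them. The first Hnrnpf site also lies inside 4933440N22Rik, a minus-strand gene, 978 bp after its start.

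The A-type and A/B-type hnRNP genes held no young peak, and the peaks given next are all aged. Hnrnpa2b1, whose protein takes part in splicing and RNA transport, had 2 aged peaks on the reverse list, with a fold of 8.88 and 14 reads at 903 bp after the nearer start (chromosome 6, 51468724 to 51469085) and a fold of 9.27 and 15 reads at 5356 bp (51464348 to 51464559). Hnrnpa1, which encodes a splicing repressor, had a fold of 7.70 and 12 reads on the forward list, 819 bp before the end of the gene (chromosome 15, 103245469 to 103245980). Hnrnpa1 has processed copies in the genome, how reads with several matches were handled is not stated in the sources used here, and their part in this peak was not tested. The other values were lower. Hnrnpa3 had folds of 4.64 and 4.50 with 7 and 8 reads, at 431 and 3455 bp after the start. Hnrnpa0, an intronless member of the family, had 4.31 with 8 reads at 813 bp. Hnrnpab held no peak.

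Hnrnpc encodes a core hnRNP that binds uridine tracts, and its 2 aged peaks had folds of 4.74 (7 reads) and 3.5 (6 reads). The latter was the lowest fold of the aged member peaks. The former was in the forward list although the gene lies on the minus strand. Young peaks alone lay in Hnrnph1, Hnrnpdl, Hnrnpm and Hnrnpr. Hnrnph1, which encodes another binder of G-rich RNA, had the highest young fold, 7.67 with 13 reads (chromosome 11, 50376439 to 50376627), in the reverse list, opposite to the gene. Its summit lay inside the gene's bounds, 11.4% along the gene, and at -444 bp, before the nearest of its 5 listed starts. At Hnrnpdl, a paralogue of Hnrnpd and its neighbour on chromosome 5, the young fold was 4.93 with 8 reads. That summit lay 6 bp beyond the gene and inside Enoph1, a plus-strand gene, at -52 bp from the nearest Enoph1 start. Hnrnpm had 4.40 with 10 reads and Hnrnpr had 4.0 with 7 reads. Hnrnpk, Hnrnpl and Hnrnpul1 held no peak in either age.

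The SR genes encode splicing activators with arginine-serine domains, and 2 of the 7 held a young and 1 an aged peak. These shares, 28.6% (8.22 to 64.1) and 14.3% (2.57 to 51.3), have intervals that include the backgrounds of 23.8% and 20.0%. Srsf5 had a young fold of 5.75 with 10 reads (chromosome 12, 80949225 to 80949455, forward list), 3779 bp after its start. Srsf11 had a young fold of 4.38 with 7 reads. Srsf4 had 2 aged peaks, with folds of 4.74 and 5.33 and 7 and 8 reads, at 1105 bp before the far end of the gene and 652 bp beyond it. Both lie inside the minus-strand lncRNA gene Gm12992, and both were in the forward list, that of Srsf4. No member of this group reached a −log10 q of 5. Srsf6, Srsf9, Srsf10 and Srsf12 held no peak.

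Tra2b, which encodes an SR-like activator of exon inclusion, was the one member with peaks on both strands at 1 site. In aged cells the reverse-list peak had a fold of 8.16 with 19 reads over a background of 1.45 (chromosome 16, 22265013 to 22265812), and the forward-list peak had 7.70 with 12 reads over 0.689 (22265267 to 22265814). Their summits lay 381 and 393 bp after the start, so the aged signal at Tra2b was near the start on both strands. No young peak lay in Tra2b, and its paralogue Tra2a held none in either age.

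Of the 6 genes for SR-related and nuclear speckle proteins, 5 held an aged peak and 0 a young one. Nuclear speckles are compartments that store splicing factors, and SON and SRRM2 form their core. Srrm2 had the highest fold of this group, 7.70 with 12 reads (chromosome 17, 23815707 to 23816184, forward list), 12860 bp after the nearest start. Luc7l3, a U1-associated factor gene, had 5.50 with 10 reads, and Srrm1, a coactivator gene, had 5.33 with 8 reads. Luc7l2, another U1-associated factor gene, had 4.29 with 14 reads over a raised background of 2.5, in the reverse list against a plus-strand gene. Son itself had one of the weakest peaks, with a fold of 3.55 and 5 reads. The weakest listed young peak at the genome background had 6 reads. Of the 5 peaks, that of Srrm2 alone reached a −log10 q of 5 (8.10), and the 5 summits lay between 6685 and 24857 bp from the nearest start. Rbm39 held no peak.

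The spliceosome core and the polypyrimidine tract binding proteins are small groups here, of 6 and 2 genes. Of 6 core genes, Sf3b2, a U2 component gene, held 1 aged peak with a fold of 5.0 and 9 reads, 841 bp before the end of the gene. Sf3a1, Sf3b3, U2af2, Prpf8 and Snrnp200 held none, and neither did Ptbp1 or Ptbp3. The aged share of the core genes was 16.7% (3.01 to 56.4), near the 20.0% of all protein-coding genes. In young cells the count of 0 of 6 allows a share of up to 39%, the upper end of its 95% Wilson interval, and the background was 23.8%. For the polypyrimidine tract binding genes 0 of 2 allows up to 65.8%.

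The aged member peaks lay near gene starts more often than aged peaks in general. Counted over peaks, the young member share, from 2 of 9 peaks, was above its background too. The counts after a start were added after the data were seen. RefSeq promoters, and with them starts and gene strands, were found for 37 of the 39 members and for 17492 protein-coding genes, with Ptbp3 and U2af2 not among them. In aged cells 7 of the 37 members, 18.9% (9.48 to 34.2), had a summit in the first 1 kb after a listed start, and 1.25% of the 17492 genes did. The 7 were Hnrnpu, Hnrnpd, Hnrnpa2b1, Hnrnpa3, Hnrnpa0, Hnrnpf and Tra2b, 6 hnRNP genes and 1 Tra2 gene. Their summits spread from 129 bp after the start at Hnrnpd to 903 bp at Hnrnpa2b1. In young cells 2 of 37 members, 5.41% (1.5 to 17.7), had one, against a background of 1.23%, and these were Hnrnpu at 824 bp and Hnrnpr at 684 bp. In the 1 kb before a start there were 0 aged members (background 0.858%) and 2 young ones, Hnrnph1 and Hnrnpdl (5.41%, background 1.22%). The Hnrnph1 summit, although before its nearest listed start, lay inside the gene's bounds. Counted over peaks, 8 of 23 aged and 2 of 9 young member summits lay in the first 1 kb, 34.8% (18.8 to 55.1) and 22.2% (6.32 to 54.7). Over all peaks whose summit lay in 1 protein-coding gene these shares were 3.25% and 2.48%, and member peaks held to the same restriction gave 6 of 21 aged (28.6%, 13.8 to 50) and 2 of 8 young (25%, 7.15 to 59.1). A further 4 aged member summits lay within 1 kb of the far end of the gene. Within 1 kb of either gene bound there were 9 of 23 aged member summits, 39.1% (22.2 to 59.2), and 1 of 9 young ones, 11.1% (1.99 to 43.5). The corresponding shares over all protein-coding genes were 11.6% and 8.03%. These backgrounds counted over peaks were not limited to genes of the members' length, and in longer genes such windows are a smaller part of the gene.

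**Figure D3:**
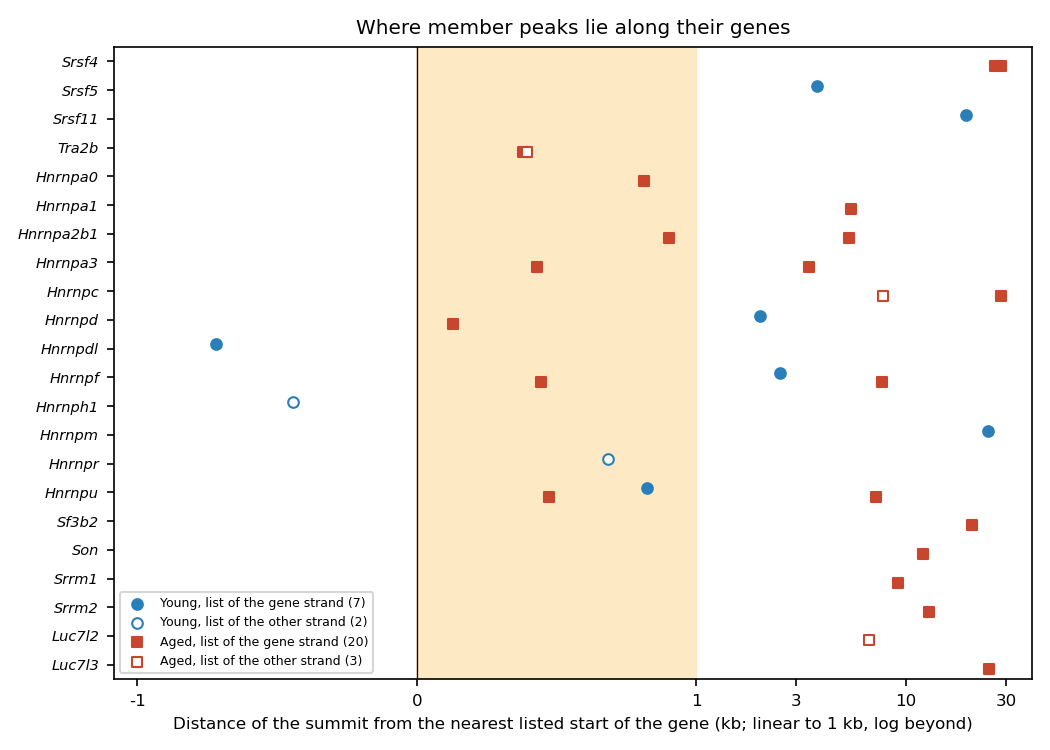
Distance of each member summit from the nearest listed start of its gene, in kb (linear up to 1 kb and logarithmic beyond), for the 22 members with a peak, with circles for young, squares for aged, filled marks for the peak list named for the gene's strand and open marks for the other list. The shaded first 1 kb holds 8 aged and 2 young summits.

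Most member peaks were in the list named for the strand of their gene, the forward list for a plus-strand gene and the reverse list for a minus-strand gene. This was so for 20 of 23 aged peaks, 87.0% (67.9 to 95.5), and for 7 of 9 young peaks, 77.8% (45.3 to 93.7). Over all peaks with the summit in 1 protein-coding gene it was so for 2876 of 5319 aged peaks, 54.1% (52.7 to 55.4), and 3515 of 7499 young peaks, 46.9% (45.7 to 48.0). Both member shares were thus above their backgrounds, and the young interval, from 9 peaks, was wide enough to include its background. These intervals take peaks as independent, although some genes, such as Tra2b in aged, gave more than 1 peak. The counts by gene strand were added after the data were seen, and the difference from the background was not tested. With the members held to the same restriction, 18 of 21 aged peaks (85.7%) and 6 of 8 young peaks (75.0%) were on that strand. The aged exceptions were the forward-list peaks of Tra2b and Hnrnpc and the peak of Luc7l2, and the young ones were Hnrnph1 and Hnrnpr. In hnRNP genes 12 of 13 aged peaks lay on the gene's strand, 92.3% (66.7 to 98.6), and in the other members 8 of 10, 80.0% (49.0 to 94.3). Peaks near a start were skewed to the gene's strand in the whole series too, with 134 of 173 aged peaks in the first 1 kb, 77.5% (70.7 to 83.0), and 123 of 186 young peaks, 66.1% (59.1 to 72.5). Among the 8 aged member peaks there, 7 were on the gene's strand, which leaves 13 of the 15 that lay elsewhere. Which DNA or RNA strand the forward list stands for is not given in the sources used here.

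**Figure D4:**
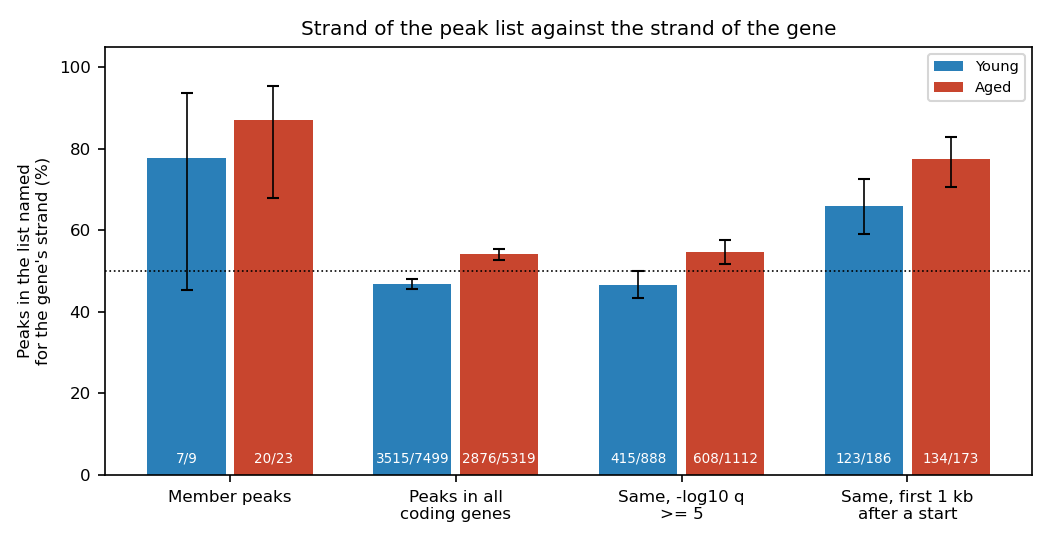
Share of peaks, in percent with 95% Wilson intervals, that lay in the list named for the strand of their gene, for member peaks, for all peaks with the summit in 1 protein-coding gene, and for those past a −log10 q of 5 or in the first 1 kb after a start, by age. Member peaks stand at 77.8% in young and 87.0% in aged, and all protein-coding genes at 46.9% and 54.1%. The dotted line marks 50%.

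The promoters of the members were rich in CG dinucleotides. Over the 52 promoters of 37 members the median share of G and C was 64.2% and the median number of CG was 27, against 56.3% and 13 over 21263 promoters of protein-coding genes. The 7 promoters with an aged summit in the first 1 kb after the start had medians of 70.3% and 41. Their G over C skew, the difference of both counts over their sum on the gene's strand, had a median of 0.15, with a range from -0.34 at Hnrnpf to 0.20 at Hnrnpa0, and all protein-coding promoters had a median of 0.02. Tra2b had a skew of 0.18, Hnrnpu 0.16, Hnrnpa2b1 0.15, Hnrnpd 0.11 and Hnrnpa3 -0.06, so both signs occurred. The median number of G runs was 8 in these 7, 7 in all member promoters and 5 in all promoters, and 97.2% of all promoters held at least 1. The letters CCGGAAG, the core of an ETS factor motif, were in 14 of the 52 member promoters on either strand (26.9%, 11.6% of all promoters). They were in 2 of the 10 member promoters with a summit within 1 kb (20.0%), those of Hnrnpd and Hnrnpf, and in 12 of the 42 without (28.6%). The letters TATAAA were in 3 of the 52 (5.77%, 12.6% of all) and in 0 of the 10 member promoters with a summit within 1 kb. These are descriptions of letters in windows that mostly lie beside the peaks.

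Other genes of the splicing pathway were taken from a list of 103 genes that are no members. Of these 29 held an aged peak, 28.2%, and 19 a young peak, 18.4%, with 18 in aged alone and 8 in young alone. Genes with a peak past a −log10 q of 5 numbered 10 in aged and 2 in young, with backgrounds of 5.39% and 4.51%. High aged folds lay in Prpf38b (9.50, 18 reads), a spliceosome maturation gene, in the SR gene Srsf7 (8.92, 16 reads, 167 bp after its start) and in Ctnnbl1 (8.50, 16 reads). The highest young folds lay in Dhx15 (9.31, 16 reads), an RNA helicase gene of spliceosome disassembly, in the SR kinase gene Srpk1 (6.80, 16 reads), in Pnn (5.49, 9 reads) and in Celf2 (5.49, 9 reads). Peaks of this list with the summit in 1 gene were on the gene's strand for 20 of 29 in aged, 69.0%, and 14 of 30 in young, 46.7%. Over all such peaks the shares were 54.1% and 46.9%. Among 30 genes of mRNA export, the step that follows splicing, 8 held an aged peak (26.7%) and 9 a young peak (30%), and 1 held both. Over all protein-coding genes 20.0% held an aged peak, 23.8% a young peak and 10.6% both. The highest folds of the export genes were those of Nxf1 (5.92), Nup153 (5.33), Thoc2 (5.22) and Alyref (5.20) in aged and of Thoc1 (6.59), Ddx19a (5.48), Ncbp3 (5.0) and Nup98 (4.99) in young.

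Near the edge of the 1 kb rule, the outermost summit inside it was the Srsf4 peak 652 bp beyond the gene, and the nearest outside were those 1261 bp beyond Hnrnpl (aged, fold 3.5, 6 reads) and 1696 bp beyond Srsf5 (young, fold 4.93, 8 reads). An aged peak with a fold of 8.28 and 13 reads lay 1938 bp beyond Tra2b and was not counted.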

How the data were processed

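Strand-specific DNA:RNA immunoprecipitation was measured in 8 libraries of sorted mouse stem cells, grouped by the sample titles. Per the submitters' processing notes, reads were handled with Bowtie2 2.4.4, Trim Galore, deepTools 3.5.1 and MACS3 3.0.0b1 on build GRCm38. What each tool did, how repeated or ambiguous alignments were treated and how libraries were merged into 1 list per strand are not given in the labels. The deposited lists hold, per peak, the authors' ratio (fold) at the summit, the p-value and q-value as −log10, a score that is 10 times the −log10 q cut to a whole number, and the summit.

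The members and lists were chosen with earlier results of these data known. Reads were recovered by solving fold = (reads + 1) / (background + 1) and the Poisson upper tail for whole reads. Both equations held within 0.1% for 100% of the peaks tried, and 100% of simulated pileups came back exactly. Genes came from the RefSeq table of GRCm38.p6. Starts and gene strands, the latter not part of the gene table, came from RefSeq's promoter table. Overlap meant at least 1 bp on the same strand. The counts by gene strand and after a start were added after the data were seen. No test between ages was run. Every member with a peak could be named, and from other lists up to 4 genes with the highest fold per age, beside genes at a member's site. One gene that this rule selects is not reported here. Depth is not in the files, so the recovered background stands in for it. Alternatives were thresholds, list length, gene windows, overlap rules and strand filters. Computation used statsmodels 0.14.6, scipy 1.17.1, pandas 2.3.3, numpy 2.4.6 and matplotlib 3.10.9 under Python 3.11.15.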

Additional observations from a re-analysis of the deposited data

How the results depend on the processing

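Of 74 alternative values 48 stayed within 1.5 times the count, or within the interval of the share, and 26 moved. The order of more aged than young members held in each of the 8 alternatives run for it. Past a −log10 q of 5 there were 7 aged and 1 young members (7 and 1 in 1 age alone) with 10 and 1 peaks. At a fold of at least 5 there were 10 aged and 3 young members, 2 of them young alone, with 14 and 3 peaks. With at least 10 recovered reads, chosen after seeing the data, there were 9 and 4 members (8 and 3 alone) with 12 and 4 peaks. A reciprocal overlap of 50% left 0% of the peaks of either age shared, since the aged Hnrnpu peak is the wider one. Within 500 bp of a gene bound lay 13% of aged summits, and within 3 kb 77.8% of young ones. Past a −log10 q of 5, and past a fold of 5, the young share at gene bounds was 0%. The share on the gene's strand, as an added alternative, was 0% past a −log10 q of 5 in young, where 1 peak was left. In the first 500 bp after a start, and at that −log10 q, 5 of the 7 aged and 0 of the 2 young members remained. Each was an alternative added after seeing the data, and the share over all genes at these settings is not given here. No paired analysis was possible because the lists combine the replicates, and for the same reason no replicate could be left out. Weak young sites can fall below the caller's threshold, so a peak in 1 age alone is not shown to differ between ages.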
